A study of Mus musculus with 26 samples.

Results

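Prdm14, the ETO family genes and the corepressors they recruit were followed in mouse embryonic stem cells (mESCs) through 7 conditions and 15 libraries of polyadenylated RNA. The 9 genes were picked by symbol from the 24015 genes of the deposited tables. They are Prdm14, the ETO genes Cbfa2t2 (which encodes Mtgr1), Cbfa2t3 (Mtg16) and Runx1t1 (Mtg8), the histone deacetylases Hdac1, Hdac2 and Hdac3, and the scaffolds Ncor1 and Sin3a. All 9 were found.

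All cells derive from a Stella:GFP reporter mESC line. Wild-type (wt) cells grown with serum+LIF gave 1 library, and those grown with 2i+LIF gave 2 libraries. The latter is a medium with kinase inhibitors that holds cells in a more uniform state. The other libraries are from cells kept without feeders in serum+LIF for 5 days, as were the wt serum cells. Prdm14-/- cells came from the CRISPR/Cas9 clones G6 and F10. FH-Prdm14 lines are the same clones with a FLAG-HA-tagged Prdm14 cDNA added back, and they overexpress Prdm14 RNA relative to wt serum cells. E294K lines are again these clones, with Prdm14 that carries a substitution placed to disturb its contact with Mtgr1. Mtgr1-/- cells came from the clones A3, C1 and C3, and FH-Mtgr1 lines are those clones with a FLAG-HA-tagged Mtgr1 cDNA. Each line is thus 1 clone, and a rescue line shares all the clone's other changes. P-values measure the spread between these lines only.

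PRDM14 is a PR/SET-domain zinc finger protein that binds DNA and represses genes of lineage commitment in mESCs and in primordial germ cells. It has no clear enzymatic activity of its own and works through partners. ETO proteins do not bind DNA by themselves. They sit as adaptors between DNA-binding factors and the corepressors NCoR and SIN3A, which bring histone deacetylases to chromatin. HDAC3 acts within NCoR/SMRT complexes, whereas HDAC1 and HDAC2 act within SIN3, NuRD and CoREST complexes.

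The sites that the knockouts were made at decide what the reads of the targeted genes can show. The Prdm14 site lies in exon 2 at chr1:13115520-13115542 on the plus strand of mm9 (NCBIM37), while the gene is on the minus strand. The Cbfa2t2 site is at chr2:154330509-154330531 on the plus strand, the gene's own strand, at the very end of exon 3, so that 1 base of the PAM falls in the intron. Both are printed from the mm9 genome with the PAM in capitals, since these are the bases the nuclease needs beside the guide.
Prdm14 target: cgccgccgaggaccaaatttTGG
Cbfa2t2 target: gactctcgttctagccttggTGG
An edit at such a site can stop the protein and leave the transcript, so a read count per gene is no measure of the loss. Reads of the added cDNA fall on the same genes as those of the endogenous transcript. Neither can be told apart in the values.

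Levels are in RPKM, which divides a gene's reads by its length and by the depth of its library, and genes are compared with each other on that scale. Library depth ran from 10668572 to 21218414 reads on genes (median 13793727). The mESC markers Pou5f1, Sox2, Nanog, Sall4, Lin28a and Utf1 summed to between 1250 and 2104 RPKM, against 2.15 to 15.6 for 6 markers of extraembryonic endoderm. Trophoblast markers summed to 45.0 to 57.1 RPKM in Mtgr1-/- and to 2.53 to 15.4 elsewhere. Neural markers, mostly Tubb3, ranged from 4.29 to 70.5. The 2 libraries of wt 2i cells differed more from each other than those of any other condition.

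The targeted genes were read first. Prdm14, on mm9 chr1:13103538-13117244, was at 1.96 RPKM in Prdm14-/- clone G6 and 3.60 in F10, beside 2.77 in wt serum cells. The knockout lines thus lay on both sides of the wt value, and the transcript level does not mark the knockout. FH-Prdm14 reached 116 RPKM in G6 and 79.8 in F10, and E294K reached 105 and 89.9. Mean Prdm14 was 35.4 times that of the single wt serum library with FH-Prdm14 and 35.2 times with E294K. Comparisons with these lines are thus comparisons with overexpressed Prdm14. These rescue lines carried about as much Prdm14 RNA as each other (log2 fold change 0.01, 95% interval -0.81 to 0.83). Both stood above the 2i+LIF wt cells at 30.8 and 19.1 RPKM, the next level in the order (E294K against 2i, log2 fold change 1.98, adjusted p = 0.00215 by limma with the Benjamini-Hochberg method). In the Mtgr1-/- lines Prdm14 was at 3.63, 3.88 and 1.43 RPKM, and in FH-Mtgr1 at 2.52, 2.22 and 2.03. Among the 4 lowest conditions, no step from one to the next passed the threshold. The step from wt 2i down to the highest of them, Mtgr1-/-, did pass (log2 fold change 2.92, adjusted p = 2.06e-05, limma, Benjamini-Hochberg).

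Cbfa2t2 lies on chr2:154262217-154365092. Knockout clones A3, C1 and C3 had 19.9, 18.6 and 18.0 RPKM of it, and 28.0, 26.7 and 25.5 once FH-Mtgr1 was added. The mean level in the knockouts was 0.705 times that in the rescues, whose reads include the added cDNA. It was 0.464 times the level of the wt serum library. The groups did not overlap (log2 fold change -0.49, SE 0.11, adjusted p = 0.00205, limma with Benjamini-Hochberg adjustment). An unedited gene also moved. Cbfa2t2 was at 16.6 and 16.8 RPKM in the Prdm14-/- clones G6 and F10, at 27.4 and 30.3 with FH-Prdm14, and at 31.4 and 32.6 with E294K. Both rescues, the one with the substitution included, lay above the knockouts. Prdm14-/- fell by 0.77 on the log2 scale against FH-Prdm14 (SE 0.13, adjusted p = 0.00116, limma, Benjamini-Hochberg). E294K exceeded Prdm14-/- by 0.92 (SE 0.13, adjusted p = 0.000598, limma, Benjamini-Hochberg). The wt serum library, at 40.7 RPKM, was the highest of all 15 libraries, although it did not differ past the threshold from E294K, the next in order. The wt 2i libraries were at 25.7 and 21.4. A pseudogene of Cbfa2t2 on chromosome 5 is named in the annotation, and how its reads were assigned is not given in the sources used here.

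**Figure D1:**
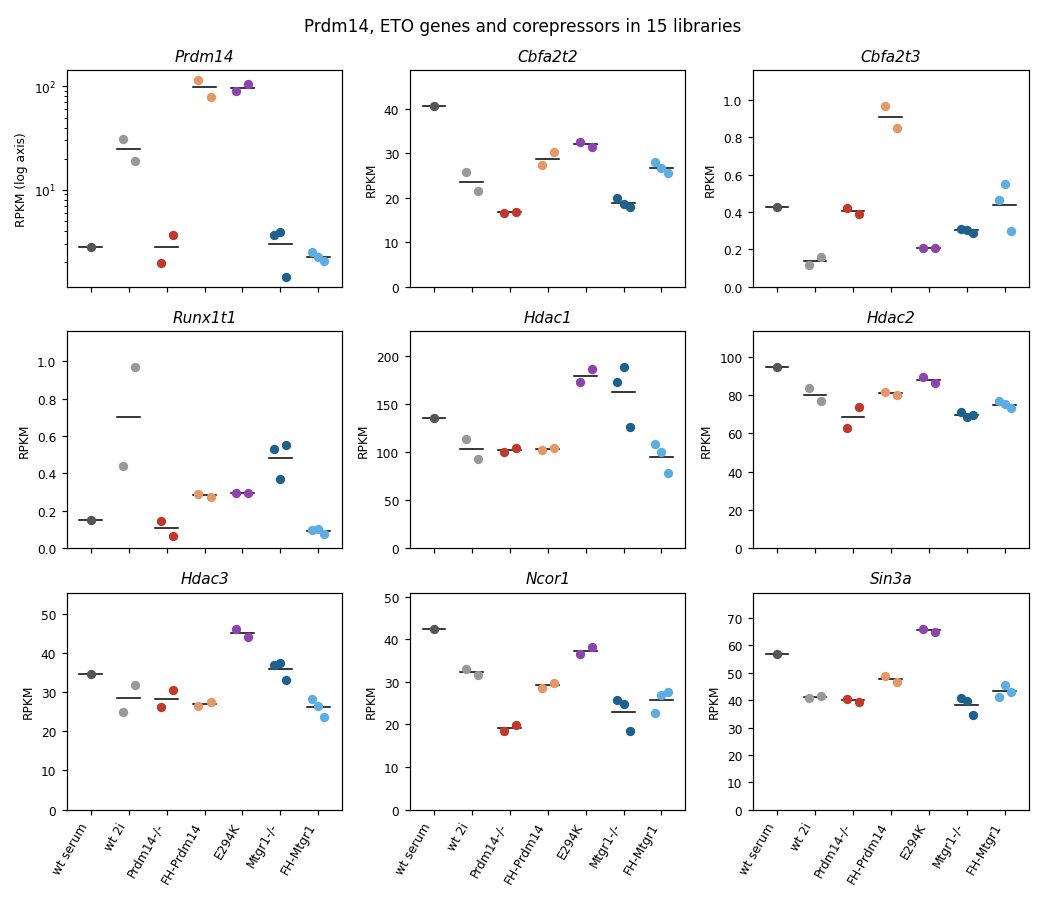
RPKM of the 9 genes in every library, grouped by condition (each point 1 library, the line the mean of the condition, Prdm14 on a log axis and the others from 0). Hdac1 and Hdac3 are highest in E294K and Mtgr1-/-, while Ncor1 and Cbfa2t2 are lowest in Prdm14-/-.

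The other ETO genes were scarce. Neither Cbfa2t3 nor Runx1t1 reached 1 RPKM in any library, so both fall below the filter of the test (1 RPKM in at least 2 libraries), which 7 of the 9 genes passed. Their tests are given from the same fit with no filter, on log2(RPKM + 0.5), where the added 0.5 shrinks the fold of a gene at this level. Beside it stands a fit of the whole reads recovered from the RPKM values (limma-voom, genes with at least 10 reads in at least 3 libraries), which was chosen after the data were seen and which does not shrink the fold in this way.

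Runx1t1 (chr4:13670583-13820796), known as the ETO part of the AML1-ETO fusion of acute myeloid leukaemia, rose on loss of Mtgr1 relative to the rescue. Its level was 0.531, 0.373 and 0.553 RPKM in clones A3, C1 and C3, and at 0.0960, 0.102 and 0.0757 after rescue. These values stand for 91, 56 and 52 reads against 11, 18 and 8. The single wt serum library, at 0.152 RPKM (20 reads), lay below all knockout and above all rescue libraries. Every knockout library lay above every rescue library, and within each clone the ratio was 5.53 in A3, 3.65 in C1 and 7.30 in C3. The difference was 0.73 on the log2(RPKM + 0.5) scale (SE 0.14, adjusted p = 0.00498, limma without a filter, Benjamini-Hochberg). In the voom fit of reads it was 2.32 (SE 0.39, adjusted p = 0.000269, Benjamini-Hochberg). Of 5 trophoblast markers, 4 were higher in every Mtgr1-/- library than in every FH-Mtgr1 library, led by Hand1 and Plac1, while Cdx2, Elf5 and Eomes stayed at low levels. Of 3 neural markers, 2 were higher (Tubb3 and Sox1) and Pax6 was lower, with sums of 43.8 to 70.5 RPKM against 4.29 to 9.16. All 6 extraembryonic endoderm markers were lower, with sums of 2.15 to 4.75 against 8.89 to 14.4. Of 5 fibroblast and mesoderm markers, Col1a1, Col1a2 and Col3a1 were higher and Twist1 lower, and the sums overlapped at 8.21 to 25.3 against 10.8 to 12.8. The part of these cell-type markers in the Runx1t1, Hdac1 and Hdac3 differences between the Mtgr1 lines was not tested, and more Runx1t1 RNA per cell and more cells with it cannot be told apart in bulk RNA.

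In the Prdm14 lines Runx1t1 stood the other way round. It was at 0.145 and 0.0657 RPKM in Prdm14-/- clones G6 and F10, at 0.291 and 0.275 with FH-Prdm14, and at 0.295 and 0.293 with E294K. The knockout libraries hold only 14 and 7 reads. Both rescues were above both knockouts, but the difference between Prdm14-/- and FH-Prdm14 missed the threshold (log2 fold change -0.37, adjusted p = 0.222, limma without a filter, and -1.49, adjusted p = 0.0542, voom, both Benjamini-Hochberg). E294K against Prdm14-/- passed in the voom fit alone (1.55, SE 0.52, adjusted p = 0.0362, against 0.181 in limma without a filter, both Benjamini-Hochberg). E294K and FH-Prdm14 differed by 0.021 on the log2(RPKM + 0.5) scale (95% interval -0.38 to 0.42).

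The effect of the Mtgr1 knockout on Runx1t1 was therefore compared with that of the Prdm14 knockout, each against its own rescue. The difference between these effects was 1.11 (SE 0.23, adjusted p = 0.0122, limma without a filter, Benjamini-Hochberg), and 3.81 in the voom fit (SE 0.66, adjusted p = 0.00105, Benjamini-Hochberg). The knockouts differed directly as well. Mtgr1-/- exceeded Prdm14-/- by 0.70 (SE 0.16, adjusted p = 0.0177, limma without a filter, Benjamini-Hochberg). The highest Runx1t1 level was in wt 2i cells, at 0.440 and 0.968 RPKM, against 0.152 in wt serum cells (log2 fold change 0.85, SE 0.22, adjusted p = 0.0368, limma without a filter, Benjamini-Hochberg). The 2i libraries spanned a wide range, and the lower of them lay within that of the Mtgr1-/- lines.

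**Figure D2:**
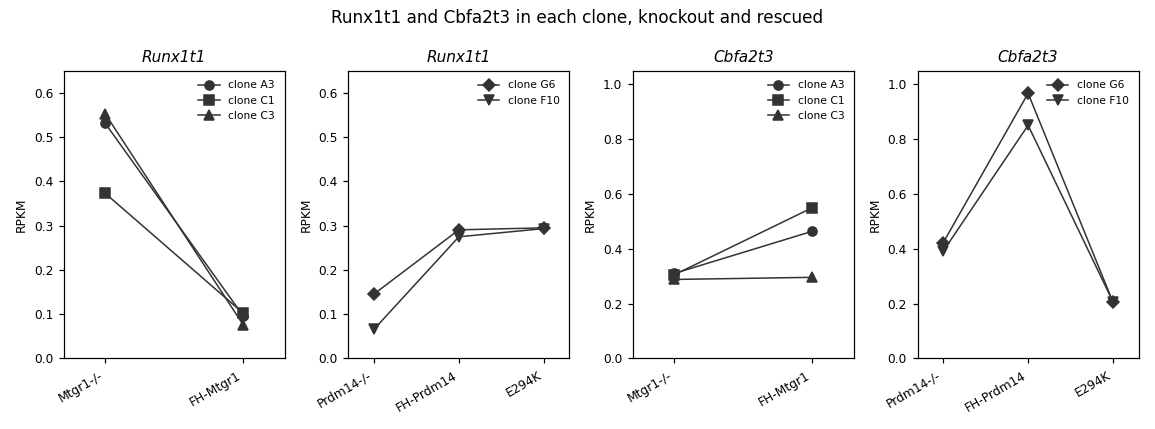
RPKM of Runx1t1 and Cbfa2t3 in each clone as knockout and after rescue (lines join the libraries of 1 clone). Runx1t1 drops with FH-Mtgr1 in all 3 clones, and Cbfa2t3 is high with FH-Prdm14 and low with E294K in both clones.

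Cbfa2t3 (chr8:125152639-125223009), best known from blood cell progenitors, separated the Prdm14 rescue lines. It was at 0.968 and 0.851 RPKM with FH-Prdm14 (clones G6 and F10, 99 and 98 reads) but at 0.205 and 0.206 with E294K (26 and 27 reads). Prdm14-/- lay between them at 0.422 and 0.391 (39 and 40 reads), close to the wt serum value of 0.427. No group overlapped another. The neural marker sum, mostly Tubb3, was 57.4 to 58.9 RPKM with FH-Prdm14, at most 25.5 with E294K and 15.9 to 16.5 in Prdm14-/-. Of the 3 neural markers, Tubb3 and Sox1 were higher in both FH-Prdm14 libraries than in both E294K libraries, while Pax6 overlapped. The part of these markers in the Cbfa2t3 differences was not tested. E294K was below FH-Prdm14 by a log2 fold change of -0.996 (SE 0.11, adjusted p = 0.000886, limma without a filter, Benjamini-Hochberg). The voom fit gave -2.12 (SE 0.31, adjusted p = 0.000617, Benjamini-Hochberg). FH-Prdm14 also exceeded wt serum by 0.60 (SE 0.13, adjusted p = 0.0306, limma without a filter, Benjamini-Hochberg), although the voom fit left this difference at an adjusted p of 0.0545. E294K against Prdm14-/- was -0.36 with an adjusted p of 0.0542 in limma without a filter, and -0.97 with 0.0462 in voom (both Benjamini-Hochberg).

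Prdm14-/- was below FH-Prdm14 for Cbfa2t3 (log2 fold change -0.64, SE 0.11, adjusted p = 0.0054, limma without a filter, Benjamini-Hochberg). In the voom fit the value was -1.15 (adjusted p = 0.011), and leaving out Prdm14-/- G6, Prdm14-/- F10 or FH-Prdm14 G6 took it to adjusted p = 0.0608, 0.0609 and 0.0727 (Benjamini-Hochberg). Cbfa2t3 was lowest in wt 2i cells, at 0.118 and 0.157 RPKM (10 and 16 reads). This was below wt serum by -0.54 (SE 0.13, adjusted p = 0.0308, limma without a filter, Benjamini-Hochberg).

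In the Mtgr1 lines Cbfa2t3 did not pass. It was at 0.310, 0.306 and 0.288 RPKM in Mtgr1-/- clones A3, C1 and C3, and at 0.464, 0.550 and 0.296 with FH-Mtgr1. The groups overlapped through clone C3, where knockout and rescue were nearly level. The difference was -0.22 (adjusted p = 0.0964, limma without a filter, Benjamini-Hochberg). Exons of Cbfa2t3 share 295 bases with an antisense transcript, Gm10612, and whether the reads kept their strand is not stated, so reads from either strand may be included.

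Cbfa2t2 supplied nearly all of the RPKM summed over the ETO genes in every condition. With FH-Prdm14 its share was 96.0% ± 0.572 (SD, n = 2), with E294K 98.5% ± 0.0402 (n = 2), and in Prdm14-/- 97.0% ± 0.472 (n = 2). In Mtgr1-/- it was 96.0% ± 0.475 (SD, n = 3) and in FH-Mtgr1 98.1% ± 0.476 (n = 3). In wt serum it was 98.6% (1 library) and in wt 2i 96.4% ± 2.02 (SD, n = 2). The rest was made up differently. Runx1t1 held 2.98% in wt 2i, its highest share. It held 2.47% in Mtgr1-/- and 0.334% in FH-Mtgr1, while Cbfa2t3 held 3.04% in FH-Prdm14 and 0.633% in E294K. In the Mtgr1-/- lines the reads of Cbfa2t2 include those of the edited transcript.

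**Figure D3:**
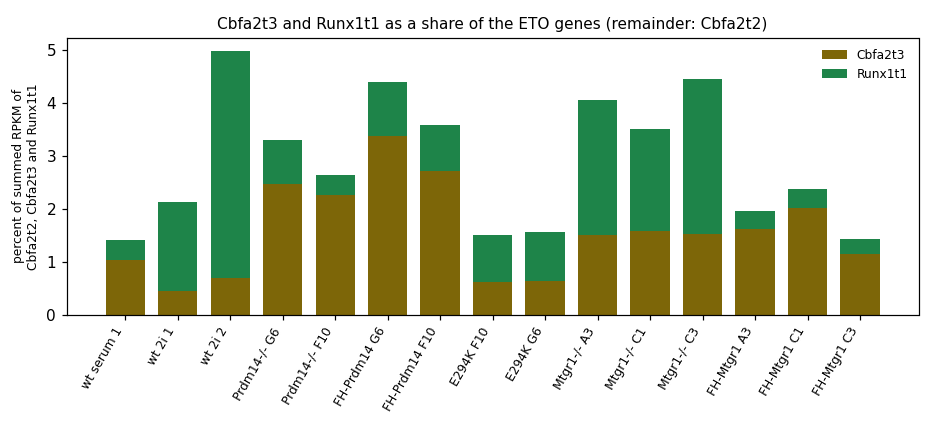
Cbfa2t3 and Runx1t1 as percent of the summed RPKM of Cbfa2t2, Cbfa2t3 and Runx1t1 in each library (stacked bars from 0, the remainder being Cbfa2t2). Runx1t1 makes up most of the minor share in wt 2i, E294K and Mtgr1-/-, and Cbfa2t3 in wt serum, Prdm14-/-, FH-Prdm14 and FH-Mtgr1.

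The corepressor partners were abundant throughout. Hdac1 (chr4:129193348-129219957), the class I deacetylase of SIN3, NuRD and CoREST complexes, was the most highly expressed of the 9 genes in wt serum cells at 135 RPKM. Hdac2, its close paralog, was at 94.6, Sin3a at 57.0, Ncor1 at 42.5 and Hdac3 at 34.7. The question put to them was whether their levels moved with the loss of Mtgr1 or Prdm14 or with the E294K substitution.

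Hdac1 rose in the Mtgr1-/- lines. It was at 173, 188 and 126 RPKM in A3, C1 and C3, against 108, 99.7 and 77.8 with FH-Mtgr1. Clone C3 was the lowest in both states, and the ratio within a clone was 1.60 in A3, 1.89 in C1 and 1.62 in C3. The log2 fold change was 0.76 (SE 0.16, adjusted p = 0.00191, limma, Benjamini-Hochberg). Hdac1 was at 173 and 186 RPKM in E294K clones F10 and G6 and at 102 and 104 with FH-Prdm14 (G6, F10), while Prdm14-/- had 100.4 and 104. So Hdac1 rose with E294K but not in the knockout of the same clones. E294K exceeded FH-Prdm14 by 0.80 (SE 0.20, adjusted p = 0.0151, limma, Benjamini-Hochberg), and Prdm14-/- differed from FH-Prdm14 by -0.01 (95% interval -0.44 to 0.42). The effect of the Mtgr1 knockout exceeded that of the Prdm14 knockout by 0.77 (SE 0.26, adjusted p = 0.0371, limma, Benjamini-Hochberg), where 31.4% of all genes passed this test of the difference, a call that was lost with no filter on low values (adjusted p = 0.0789). Leaving out any 1 library of E294K or FH-Prdm14 took their difference to an adjusted p between 0.0756 and 0.102, and E294K against Prdm14-/- (0.81, adjusted p = 0.0102) was lost without Prdm14-/- G6 or E294K G6 (0.0694 and 0.0718, limma, Benjamini-Hochberg). The wt serum library at 135 RPKM lay inside the range of the Mtgr1-/- lines, and no mutant or rescue condition differed from it past the threshold.

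Hdac3 (chr18:38095498-38114642), the deacetylase that NCoR and SMRT switch on, had a similar order. It was at 37.0, 37.3 and 33.1 RPKM in Mtgr1-/- clones A3, C1 and C3 and at 28.2, 26.5 and 23.7 with FH-Mtgr1. The groups did not overlap, and the log2 fold change was 0.45 (SE 0.12, adjusted p = 0.00857, limma, Benjamini-Hochberg). The wt serum library at 34.7 RPKM lay inside the range of the Mtgr1-/- lines, and FH-Mtgr1 was the lowest of all conditions. Mtgr1-/- differed from wt serum by 0.045 (adjusted p = 0.859, limma, Benjamini-Hochberg). With E294K Hdac3 was at 46.2 and 44.0 RPKM (F10, G6), the highest of all conditions, against 26.4 and 27.6 with FH-Prdm14 (G6, F10). E294K was higher by 0.73 (SE 0.15, adjusted p = 0.00554, limma, Benjamini-Hochberg). Without FH-Prdm14 G6 or E294K F10 the adjusted p was 0.0579 and 0.0609. Prdm14-/- at 26.1 and 30.5 RPKM overlapped FH-Prdm14. The effects of the knockouts on Hdac3 differed by 0.38 (adjusted p = 0.149, limma, Benjamini-Hochberg), which did not pass.

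Ncor1 (chr11:62129928-62272043), the scaffold that holds HDAC3, went down in the Prdm14 knockout. It was at 18.4 and 19.9 RPKM in Prdm14-/- clones G6 and F10, at 28.6 and 29.7 with FH-Prdm14, and at 38.2 and 36.4 with E294K. The 3 conditions did not overlap. Prdm14-/- was below FH-Prdm14 by a log2 fold change of -0.60 (SE 0.16, adjusted p = 0.0184, limma, Benjamini-Hochberg), but leaving out Prdm14-/- G6 or either FH-Prdm14 library took the adjusted p to between 0.0779 and 0.114. E294K exceeded Prdm14-/- by 0.95 (SE 0.16, adjusted p = 0.00167, limma, Benjamini-Hochberg). E294K and FH-Prdm14 differed by 0.35 with an adjusted p of 0.148 (limma, Benjamini-Hochberg). In the Mtgr1 lines the groups overlapped, with 25.7, 24.7 and 18.6 RPKM in Mtgr1-/- against 22.7, 26.9 and 27.7 with FH-Mtgr1 (A3, C1, C3). Ncor1 exons share 87 bases with the antisense gene Pigl.

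Sin3a (chr9:56919847-56976173), scaffold of the SIN3 complex, was at 66.1 and 64.9 RPKM in E294K (F10, G6), 48.7 and 46.8 in FH-Prdm14 (G6, F10) and 40.6 and 39.3 in Prdm14-/-. The order was the same as for Ncor1, again without overlap. E294K was above FH-Prdm14 by 0.45 (SE 0.12, adjusted p = 0.0211, limma, Benjamini-Hochberg) and above Prdm14-/- by 0.71 (SE 0.12, adjusted p = 0.0016, limma, Benjamini-Hochberg). The first of these was lost on leaving out any library of the compared groups (adjusted p between 0.101 and 0.139). Mtgr1-/- lines had 40.8, 39.6 and 34.7 RPKM and FH-Mtgr1 lines 41.0, 45.6 and 42.9. That difference of -0.17 did not pass (adjusted p = 0.161, limma, Benjamini-Hochberg). Sin3a exons share 205 bases with an antisense noncoding RNA.

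Hdac2 (chr10:36694350-36721695) showed small differences throughout. It was at 71.3, 68.8 and 69.6 RPKM in Mtgr1-/- and at 76.8, 75.4 and 73.1 with FH-Mtgr1, groups that were close but did not overlap (log2 fold change -0.10, adjusted p = 0.381, limma, Benjamini-Hochberg). In Prdm14-/- it was at 63.1 and 73.9, with FH-Prdm14 at 81.9 and 80.2, and with E294K at 86.5 and 89.6 (G6, F10). E294K was above Prdm14-/- by 0.36 (SE 0.12, adjusted p = 0.032, limma, Benjamini-Hochberg). An adjustment for GC content left 0.022 of this (adjusted p = 0.912), and the fit blocked by parental clone gave 0.36 with an adjusted p of 0.0557 (limma, Benjamini-Hochberg). Leaving out Prdm14-/- G6, E294K F10 or E294K G6 also ended the call (adjusted p = 0.217, 0.164 and 0.116).

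**Figure D4:**
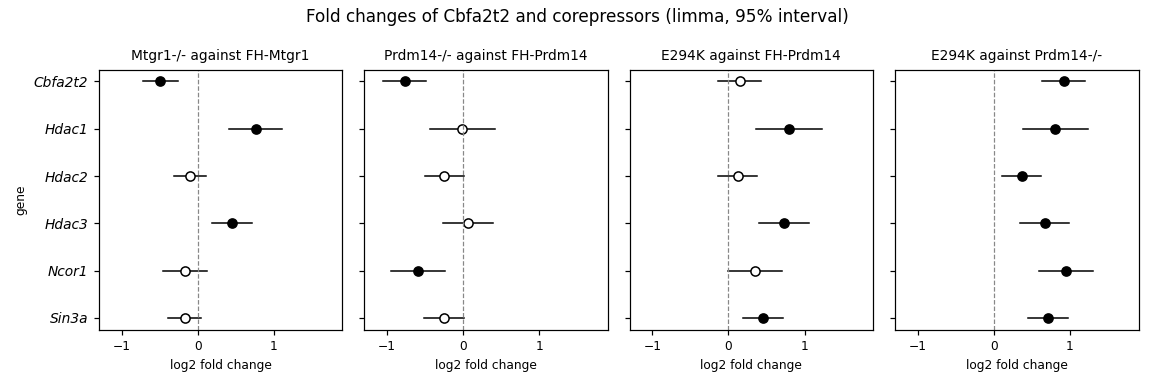
Log2 fold changes of Cbfa2t2 and the corepressor partners in 4 comparisons, on log2(RPKM + 0.5), with 95% intervals from limma (filled points passed the threshold of 0.05 after Benjamini-Hochberg adjustment over all genes). All 6 genes lie above 0 in E294K against Prdm14-/-, whereas Hdac1 and Hdac3 are the only ones of the 6 above 0 past the threshold in Mtgr1-/- against FH-Mtgr1.

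Counted together, 3 of the 7 tested genes passed in Mtgr1-/- against FH-Mtgr1 (Hdac1 and Hdac3 up, Cbfa2t2 down), where 52.3% of all 13477 genes tested passed, 26.2% up and 26.1% down. The share of the genes is thus near or below that of the whole table. Cbfa2t2 is among them with the reads of the added cDNA in FH-Mtgr1. In Prdm14-/- against FH-Prdm14 3 of 7 passed, all lower (Prdm14 itself, Cbfa2t2 and Ncor1), beside 25.2% of all genes, 11.4% higher and 13.8% lower. The Prdm14 call in this count is fixed by the cDNA in FH-Prdm14 and is no finding. The same holds for Prdm14 in E294K against Prdm14-/- below. In E294K against FH-Prdm14 3 of 7 passed, all higher (Hdac1, Hdac3 and Sin3a), beside 19.5% of all genes, of which 6.35% were higher and 13.2% lower. Leaving out any 1 library of either group, which leaves a single library in it, ended most or all of these calls. For such alternative fits, here and below, the share of all genes passing is not set beside the count. A drop over the whole table and one particular to these genes are therefore not told apart. In E294K against Prdm14-/- all 7 passed and all were higher, beside 32.9% of all genes, with 15.1% higher and 17.8% lower. Without Prdm14-/- G6 the count was 4. All 5 fibroblast and mesoderm markers were lower in both E294K libraries than in both Prdm14-/- libraries (sums of 3.71 to 4.46 against 11.2 to 17.7 RPKM), and 4 of 6 mESC markers were higher and 1 lower. Their part in these differences was not tested. E294K is compared with FH-Prdm14 and with Prdm14-/-, which are also compared with each other, so these counts share libraries. The median log2 fold change of the 7 genes in E294K against Prdm14-/- was 0.81, beside 0.00 for all genes, although Prdm14 is among them through the cDNA.

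The knockouts were also set against the single wt serum library, whose own spread is unknown and is taken from the other conditions. In Prdm14-/- 4 of 7 genes passed, all lower (Cbfa2t2, Hdac2, Ncor1 and Sin3a), beside 25.4% of all genes, 11.7% higher and 13.7% lower. In Mtgr1-/- the calls again numbered 4 of 7, were for the same genes and were all lower, beside 37.0% of all genes, 14.9% higher and 22.1% lower. Both comparisons use the same wt library, which was the highest of all libraries for Cbfa2t2, Hdac2 and Ncor1. FH-Mtgr1 means also lay below it, at 0.658, 0.794, 0.607 and 0.758 times its level for Cbfa2t2, Hdac2, Ncor1 and Sin3a. In the same order, wt 2i means were at 0.580, 0.849, 0.760 and 0.723 times, and FH-Prdm14 means at 0.709, 0.856, 0.687 and 0.837 times. E294K lay above it for Sin3a (1.15 times) and below it for the others. Ncor1 had the largest fall among the corepressors, by 1.13 on the log2 scale in Prdm14-/- (SE 0.20, adjusted p = 0.00376) and by 0.88 in Mtgr1-/- (SE 0.19, adjusted p = 0.00341, both limma, Benjamini-Hochberg). Cbfa2t2 fell by 1.26 in Prdm14-/- (SE 0.16, adjusted p = 0.000756) and by 1.09 in Mtgr1-/- (SE 0.15, adjusted p = 0.00028, both limma, Benjamini-Hochberg). The Hdac2 falls of 0.47 and 0.43 were gone after adjustment for GC content, at 0.12 and -0.0073. In Prdm14-/- the Sin3a call was also lost with that adjustment (adjusted p = 0.167) and without either knockout library (0.077 and 0.0563), and the Hdac2 call without G6 (0.152, limma, Benjamini-Hochberg). When only the 2 compared conditions entered the fit, 1 of the 4 genes passed in each comparison.

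In wt 2i against wt serum 3 of 7 genes passed, beside 22.9% of all genes, 9.28% higher and 13.6% lower. Prdm14 was higher by 2.92 (SE 0.46, adjusted p = 0.00127, limma, Benjamini-Hochberg), and Cbfa2t2 (-0.78, adjusted p = 0.00536) and Sin3a (-0.46, adjusted p = 0.0401, both limma, Benjamini-Hochberg) were lower. The Sin3a call was lost with median-of-ratios scaling (adjusted p = 0.0927), with the GC adjustment (0.217) and without wt 2i library 1 (0.0605). With only the wt libraries fitted none of the 3 passed (adjusted p = 0.263 for Prdm14, 0.463 for Cbfa2t2 and 0.588 for Sin3a, limma, Benjamini-Hochberg). Hdac1, Hdac2, Hdac3 and Ncor1 had log2 fold changes of -0.40, -0.24, -0.29 and -0.39 that did not pass. In Mtgr1-/- against Prdm14-/- only Hdac1 passed of the 7, higher by 0.64 (SE 0.18, adjusted p = 0.0162, limma, Benjamini-Hochberg), beside 35.4% of all genes, 14.4% higher and 21.1% lower. That call was lost without any of the libraries Prdm14-/- G6, Prdm14-/- F10, Mtgr1-/- A3 or Mtgr1-/- C1.

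Across all 7 conditions, neighbours in the order of levels seldom differed. For the corepressors, no step from one condition to the next passed the threshold. The order ran from E294K at the top to FH-Mtgr1 at the bottom for Hdac1 and Hdac3, from wt serum to Prdm14-/- for Hdac2 and Ncor1, and from E294K to Mtgr1-/- for Sin3a. Cbfa2t2 ran from wt serum down to Prdm14-/-, where only the step from wt 2i to Mtgr1-/- passed (log2 fold change 0.31, adjusted p = 0.0429, limma, Benjamini-Hochberg). For Cbfa2t3 the step from FH-Prdm14 to the next, FH-Mtgr1, passed (0.60, adjusted p = 0.00322, limma without a filter, Benjamini-Hochberg). For Runx1t1 no single step passed. For Prdm14 the steps from E294K to wt 2i and from wt 2i to Mtgr1-/- passed, as given above.

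The wider corepressor machinery was read from a list of 62 genes in 7 sets, of which 53 passed the filter. In Mtgr1-/- against FH-Mtgr1 28 of 53 passed, 17 higher and 11 lower, which is 52.8% and next to the 52.3% of all genes. Of the 9 NuRD genes 5 passed, all higher, and of the 4 NCoR and SMRT genes 3 passed, 2 higher. Among all genes 52.3% passed, 26.2% higher and 26.1% lower. The Sin3 set was split, with Brms1, Rbbp7, Sap18, Sin3b and Suds3 higher and Arid4a, Arid4b, Ing1 and Sap30 lower past the threshold. Brms1, a SIN3-associated subunit, rose from 12.9 to 18.0 RPKM in the rescue lines to 38.8 to 47.8 in the knockouts (log2 fold change 1.52, adjusted p = 1.14e-05, limma, Benjamini-Hochberg). Hdac11, a class IV deacetylase, fell by 1.58 on the log2 scale (adjusted p = 1.1e-05, limma, Benjamini-Hochberg).

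In Prdm14-/- against FH-Prdm14 16 of the 53 passed, 10 higher and 6 lower, which is 30.2% beside 25.2% of all genes. Without Prdm14-/- G6, FH-Prdm14 G6 or FH-Prdm14 F10 the count was 6, 8 and 5. Hdac7, a class IIa deacetylase, was at 15.0 and 15.6 RPKM in the knockouts and at 3.47 and 3.56 with FH-Prdm14 (log2 fold change 1.98, adjusted p = 0.00148, limma, Benjamini-Hochberg). Rbbp7, a histone-binding subunit shared by SIN3 and NuRD, was higher by 1.48 (adjusted p = 0.000116, limma, Benjamini-Hochberg). It was at 212 and 173 RPKM in the knockouts and at 67.8 and 68.3 with FH-Prdm14. The wt serum library, at 177 RPKM of Rbbp7, lay inside the knockout range. Prdm8 was at 2.13 and 1.45 RPKM in the knockouts and at most at 0.604 in the other libraries, so it passed the filter through Prdm14-/- alone. It is included in the counts, and its tests against that condition are not read. Runx1 reached 1 RPKM in knockout libraries alone (1.37 and 1.12 in Prdm14-/-, 1.83 in Mtgr1-/- C3), and was at most at 0.671 in wt and rescue libraries. Gfi1b reached it only in Prdm14-/- G6 (1.28) and FH-Mtgr1 A3 (1.23). Both are included in the counts of all comparisons, and their tests are not read. Tbl1xr1 and Tbl1x, paralogous subunits beside NCoR, differed in sign at -0.88 and 0.62.

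In E294K against FH-Prdm14 8 of the 53 passed, 4 in each direction (15.1%, beside 19.5% of all genes). Rbbp7 was higher at 132 and 141 RPKM against 67.8 and 68.3 (log2 fold change 1.00, adjusted p = 0.00217, limma, Benjamini-Hochberg). Both groups were below the wt serum library at 177 RPKM. Hdac5, a class IIa deacetylase, was lower by 0.80 (adjusted p = 0.0286, limma, Benjamini-Hochberg), at 15.8 and 17.3 RPKM against 29.7 and 28.6. The wt serum library, at 16.4 RPKM of Hdac5, lay inside the E294K range and below FH-Prdm14. Runx3, a RUNX factor, was at 0.436 and 0.407 RPKM against 1.82 and 1.65 (G6, F10), and it passed the filter only with the help of FH-Prdm14, so its test is not read. The count depended on the fit, with 29 when only the compared conditions were fitted, 5 with the clones as a replicate block, and 1 or 2 without any 1 library. Hdac7, high in Prdm14-/-, was at 2.60 and 2.64 RPKM with E294K, a log2 fold change of -2.34 (adjusted p = 0.000769, limma, Benjamini-Hochberg). In that comparison 15 of 53 passed, 8 higher and 7 lower (28.3%, beside 32.9% of all genes). Without Prdm14-/- G6, E294K F10 or E294K G6 the count was 7, 4 and 7. Tbl1xr1 was higher there by 0.92 (adjusted p = 0.00589, limma, Benjamini-Hochberg).

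**Figure D5:**
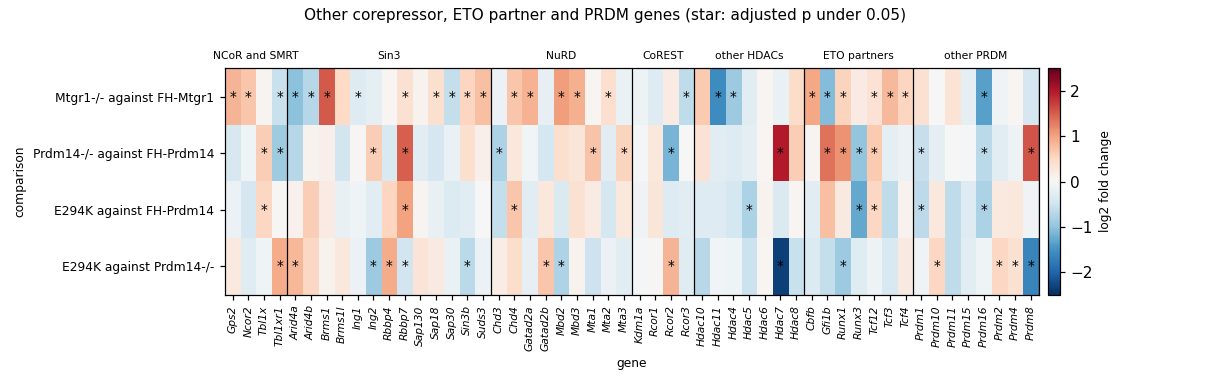
Log2 fold changes of 52 of the 53 tested list genes in 4 comparisons (colour, on log2(RPKM + 0.5), a star for adjusted p under 0.05 by limma). Hdac7 and Rbbp7 are among the genes higher in Prdm14-/- than in FH-Prdm14, and Brms1 among those higher in Mtgr1-/- than in FH-Mtgr1. Rbbp7 in wt serum was inside the range of Prdm14-/-. Prdm8 passed the filter only through Prdm14-/-, and Runx1 only through knockout libraries.

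Against the wt serum library 20 of 53 passed in Mtgr1-/- (12 higher, 8 lower, 37.7% beside 37.0% of all genes). In Prdm14-/- 15 passed (9 higher, 6 lower, 28.3% beside 25.4%), and in wt 2i 12 (9 higher, 3 lower, 22.6% beside 22.9%). With only the compared conditions fitted the counts were 11, 2 and 0, and without Prdm14-/- G6 the Prdm14-/- count was 6. Mbd2, the methyl-CpG-binding subunit of NuRD, was higher in each, by 1.49, 1.29 and 1.16 (adjusted p = 0.000373, 0.00382 and 0.00438, limma, Benjamini-Hochberg). These share the single wt library, in which Mbd2 was at 7.53 RPKM. Beside it stood Brms1 (1.60) in Mtgr1-/-, Hdac7 (2.05) in Prdm14-/-, and Hdac7 (2.13) and Sin3b (1.10) in wt 2i. In Mtgr1-/- against Prdm14-/- 22 passed (10 higher, 12 lower), which is 41.5% beside 35.4% of all genes, with Hdac7 (-1.81) and Hdac11 (-1.40) among the lower ones. The count was 12 with only the compared conditions fitted, 12 without Prdm14-/- G6, and 14 without Prdm14-/- F10 or Mtgr1-/- C1.

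The genes whose profile over the 15 libraries was most like each gene were found by Pearson's r of log2(RPKM + 0.5), as a description. For Runx1t1 they were Ptplad1 (r = 0.901), Aplp2 (0.901) and Pdgfc (0.898). Crispld2 (0.948), Fam124a (0.932) and Echdc3 (0.924) were nearest to Cbfa2t3. Cbfa2t2 was nearest to Atxn3 (0.940), Supv3l1 (0.936) and Trappc8 (0.933), and Prdm14 to Samm50 (0.934), Catip (0.922) and Grb2 (0.902). Libraries of 1 condition or clone are not independent, so these values carry no p. The choice depends on the measure, since by Spearman's rho only Crispld2 and Pdgfc of these 12 were again among the nearest 3.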

How the data were processed

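Gene-level RNA values of 15 libraries were used. The ChIP-seq part of the series was left out. According to the study's methods, reads were aligned to mm9 with Tophat and counted on RefSeq gene models with HTSeq (versions not given in the sources used here), from polyadenylated RNA sequenced as single-end reads on 2 instruments, and which library ran on which is not given. The sample labels name both mm9 and GRCm38 as genome builds, and positions here are on mm9. The authors deposited 1 RPKM value per gene and library, with the gene length. Multiplied by length and divided by the smallest step of the library, 100% of the values were whole reads within 0.01, which gave the depth. No pair of libraries was identical.

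RPKM values were taken as log2(RPKM + 0.5), which understates the change of low genes. Genes with at least 1 RPKM in at least 2 libraries were kept (13477). The test was limma (version 3.58.1, R 4.3.3, moderated with a trend on mean level), fitted over all 15 libraries at once with a mean for each condition. It was two-sided, with Benjamini-Hochberg adjustment over all genes tested and a threshold of 0.05. The wt serum condition has 1 library, so its spread is borrowed from the others. The scripts were first tested on simulated counts in which 200 genes had a known change. Positions and target sites came from NCBIM37. Tables were made with Python 3.11.15, numpy 2.4.6, pandas 2.3.3 and matplotlib 3.10.9.

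The genes and the corepressor list were chosen with earlier results of these data known. From the list, the 3 genes with the largest change past the threshold in a comparison and no overlap between groups were named, except 1 gene that is counted but not reported here. Tbl1x and the comparison of Tbl1xr1 with it were added after their values were seen. So were the Sin3 genes given by direction and the filter limits of Runx1 and Gfi1b. Rescue and knockout lines of the same parental clone are paired by their labels. The correlation of their deviations from the condition means was 0.0633, -0.182 and 0.0278 for Mtgr1 clones A3, C1 and C3, and 0.299 for Prdm14-/- with FH-Prdm14, and a fit with the parental clone as replicate block was an alternative. Other alternatives were no filter, pseudocounts of 0.1 and 1, only the compared conditions, median-of-ratios scaling, limma-voom on whole reads, adjustment for GC content (known for 89.4% of genes tested), and leaving out each library. The voom fit with a read filter and the fit without wt 2i were chosen after seeing the data.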

Additional observations from a re-analysis of the deposited data

Results flagged for a closer look

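The effects of the knockouts, each against its own rescue, differed past the threshold for 2 of the 7 genes that passed the filter (Prdm14 and Hdac1), beside 31.4% of all genes. Without a filter Runx1t1 passed as well, beside 17.3% of all genes, and Hdac1 did not (adjusted p = 0.0789). For Prdm14 the Mtgr1 effect exceeded the Prdm14 effect by 5.18 on the log2 scale, which the cDNA in FH-Prdm14 fixes. For Hdac1 it did so by 0.77 (higher in 3 of 3 Mtgr1 clones, against 1 of 2 Prdm14 clones), and for Runx1t1 by 1.11 (higher in 3 of 3 Mtgr1 clones and lower in 2 of 2 Prdm14 clones). The adjusted p was 0.0371 for Hdac1 and 0.0122 for Runx1t1 (limma, Benjamini-Hochberg, without a filter for Runx1t1). Runx1t1 rests on 7 to 91 reads a library in these lines, and its marker sums are given with the result.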

How the results depend on the processing

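For Mtgr1-/- against FH-Mtgr1, the calls of Cbfa2t2, Hdac1 and Hdac3 kept their direction and side of the threshold under every alternative run, with log2 fold changes of -0.53 to -0.46, 0.62 to 0.93 and 0.38 to 0.50. For Cbfa2t2 the rescue reads include the added cDNA. Over all values of the 9 genes, 583 alternatives gave the same call, 58 lost it, 6 gained it and 14 changed sign, and causes were not tested. Of the values that changed sign, only Hdac2 in Prdm14-/- against wt serum (-0.47) had passed the threshold. The GC adjustment, with or without the replicate block, took Hdac2 to 0.054 in Mtgr1-/- against FH-Mtgr1, -0.10 in E294K against FH-Prdm14 and 0.12 in Prdm14-/- against wt serum, and Hdac1 to 0.082 in Prdm14-/- against FH-Prdm14, where median-of-ratios scaling gave 0.048. Leaving out 1 library gave -0.037 to 0.017 for that Hdac1 value, -0.045 to 0.18 for Hdac3 in the same comparison and -0.26 to 0.28 for Prdm14 in E294K against FH-Prdm14.

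For the counts below, of these genes and of the corepressor list, the share of all genes passing under the same alternative is not given. Counts of the 9 genes called moved as follows. With no filter they were 6 in Prdm14-/- against FH-Prdm14, 5 in wt 2i against wt serum and 2 in Mtgr1-/- against Prdm14-/-. Cbfa2t3, Runx1t1 or both were the added calls, together with Hdac2 (adjusted p = 0.0453) and Sin3a (0.0496) in the first of these (limma, Benjamini-Hochberg). With only the compared conditions fitted, which leaves fewer samples, they were 1 in either knockout against wt serum, 0 in wt 2i against wt serum and 0 in Mtgr1-/- against Prdm14-/-. The voom fit gave 5 in wt 2i against wt serum and 2 in Mtgr1-/- against Prdm14-/-, where median-of-ratios scaling and leaving out wt 2i also gave 2. The GC adjustment, alone or with the replicate block, gave 2 in Prdm14-/- against wt serum. Leaving out 1 library gave 0 to 1 in E294K against FH-Prdm14, 4 to 7 in E294K against Prdm14-/-, 2 to 3 in Prdm14-/- against wt serum and 0 to 3 in Mtgr1-/- against Prdm14-/-.

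For the corepressor list, E294K against FH-Prdm14 gave 29 with only the compared conditions, 5 with the replicate block (also with the GC adjustment), and 13 with voom or without wt 2i. Only the compared conditions gave 11 and 2 in Mtgr1-/- and Prdm14-/- against wt serum, 0 in wt 2i against wt serum and 12 in Mtgr1-/- against Prdm14-/-. Leaving out 1 library gave 5 to 12 in Prdm14-/- against FH-Prdm14, 1 to 2 in E294K against FH-Prdm14, 4 to 14 in E294K against Prdm14-/-, 6 to 14 in Prdm14-/- against wt serum and 12 to 23 in Mtgr1-/- against Prdm14-/-. Counted in reads, without correction for length, the Cbfa2t2 share of ETO reads was 98.1% in wt serum, 96.1% in Prdm14-/-, 94.8% in FH-Prdm14, 97.9% in E294K, 94.7% in Mtgr1-/- and 97.5% in FH-Mtgr1. Under the replicate block Hdac2 also lost its call in Prdm14-/- against wt serum (adjusted p = 0.0582, limma, Benjamini-Hochberg) and Sin3a in wt 2i against wt serum (0.0646). Median-of-ratios scaling moved the median of all genes by 0.10 in Mtgr1-/- against wt serum, and took the share of higher genes among those called from 40.2% to 49.4% there, from 46.0% to 52.8% in Prdm14-/- against wt serum and from 40.6% to 49.7% in wt 2i against wt serum. The 7 to 103 reads of Runx1t1 and 10 to 99 of Cbfa2t3 per library limit the precision of both.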
